A study of Homo sapiens with 12 samples.

Results

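The 77 nuclear genes named for a protein of the mitochondrial ribosome were followed in Caco-2 cells given ochratoxin A, the bacterium Bacillus subtilis CW14, or both. They are all entries of the deposited table of 26125 genes whose symbol is MRPL or MRPS, then a number and at most a letter A, B or C, and by symbol 48 belong to the large subunit and 29 to the small subunit. Caco-2 is a line from a human tumour of the colon whose cells resemble enterocytes once they form a layer, and all the cells were cultured for 21 days on permeable inserts before exposure. The OTA group received ochratoxin A, a fungal toxin of stored food, at 15 µmol/L in the apical chamber. The CW14 group received the bacterium in that chamber, the combined group received toxin and bacterium, and the control group received neither. Each group had 3 libraries, 12 in all, and the transport buffer was common to all 4 groups. The labels used here do not give the exposure time, and the cells come from a single tumour line.

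Mitochondria make a handful of inner-membrane subunits of the respiratory chain and the ATP synthase on their own ribosomes. The rRNAs of these ribosomes come from mitochondrial DNA, while every ribosomal protein is encoded in the nucleus, made in the cytosol and imported. The small subunit binds the mRNA and decodes it, and the large subunit joins the amino acids and leads the new chain to the membrane. Many of the proteins have homologues in the bacterial ribosome, and others are found in mitochondrial ribosomes and not in bacteria. In the intestine the enterocyte draws much of its energy for transport from this respiratory chain.

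Epithelial markers were present in every library, with a median of 528 FPKM for EPCAM and 25.1 FPKM for VIL1, while SI, the brush-border sucrase of mature enterocytes, reached at most 0.148 FPKM. FPKM are fragments scaled to transcript length and to the mapped fragments of the library. PTPRC, COL1A2 and DCN, which define leukocytes or stromal cells, were listed at 0 in all 12 libraries. Of the other stromal markers COL1A1, COL3A1 and PDGFRB were above 0 in every library, COL1A1 at 0.980 to 4.91 FPKM, and the summed level of all 5 was between 3.32 and 5.88 FPKM in combined libraries and between 2.12 and 2.61 FPKM in control libraries. The summed level of 4 leukocyte markers lay between 158 and 196 FPKM in OTA libraries and between 109 and 146 FPKM in control libraries, nearly all of it from CD68 and LYZ, and the part of either sum in the results was not tested. Combined replicate 3 stood apart from the other libraries. Its residuals from the group means had an SD of 0.588 on the log2 scale, against 0.305 to 0.424 in the other 11 libraries, and its relative depth was the lowest, at 0.470 of control replicate 1. It was also the highest library for 56 of the 77 members (72.7%), against 30.9% of all genes tested. Since all groups share an estimate of the spread, comparisons are given with and without it. Nothing in the labels says that replicates were separate cultures, so the spread behind each p-value is that of these samples and may be technical.

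All 77 genes were expressed, and none was listed at 0 in any library. The mean over the 12 libraries had a median of 33.7 FPKM across the genes, 35.1 FPKM for the large and 33.1 FPKM for the small subunit, against 10.5 FPKM for all 12928 genes tested (those with a mean of at least 1 FPKM). All 77 passed this filter. In the large subunit the highest levels belonged to MRPL27 (210.1 FPKM), a homologue of the bacterial protein that reaches towards the peptidyl transferase centre, to MRPL33 (174 FPKM), to MRPL51 (173 FPKM) and to MRPL10 (145 FPKM), the base of the stalk that recruits translation factors. The lowest were MRPL39 (1.69 FPKM), MRPL1 (7.05 FPKM), MRPL22 (7.13 FPKM), whose bacterial homologue lines the exit tunnel, and MRPL35 (7.44 FPKM). In the small subunit MRPS26 stood highest at 417 FPKM, followed by MRPS6 (206 FPKM), MRPS24 (184 FPKM) and MRPS35 (139.6 FPKM). The lowest small subunit genes were MRPS22 (5.92 FPKM), MRPS11 (6.65 FPKM), MRPS18C (11.3 FPKM) and MRPS15 (11.6 FPKM). For 17 members the deposited locus overlaps that of another entry, and fragments of overlapping genes cannot be told apart without strand, which the kit does not mark as far as the labels say. Pseudogene entries with the symbols MRPL42P5, MRPL45P2 and MRPS31P5 had means of 0.755, 2.08 and 3.85 FPKM, and they can share fragments with MRPL42, MRPL45 and MRPS31.

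**Figure D1:**
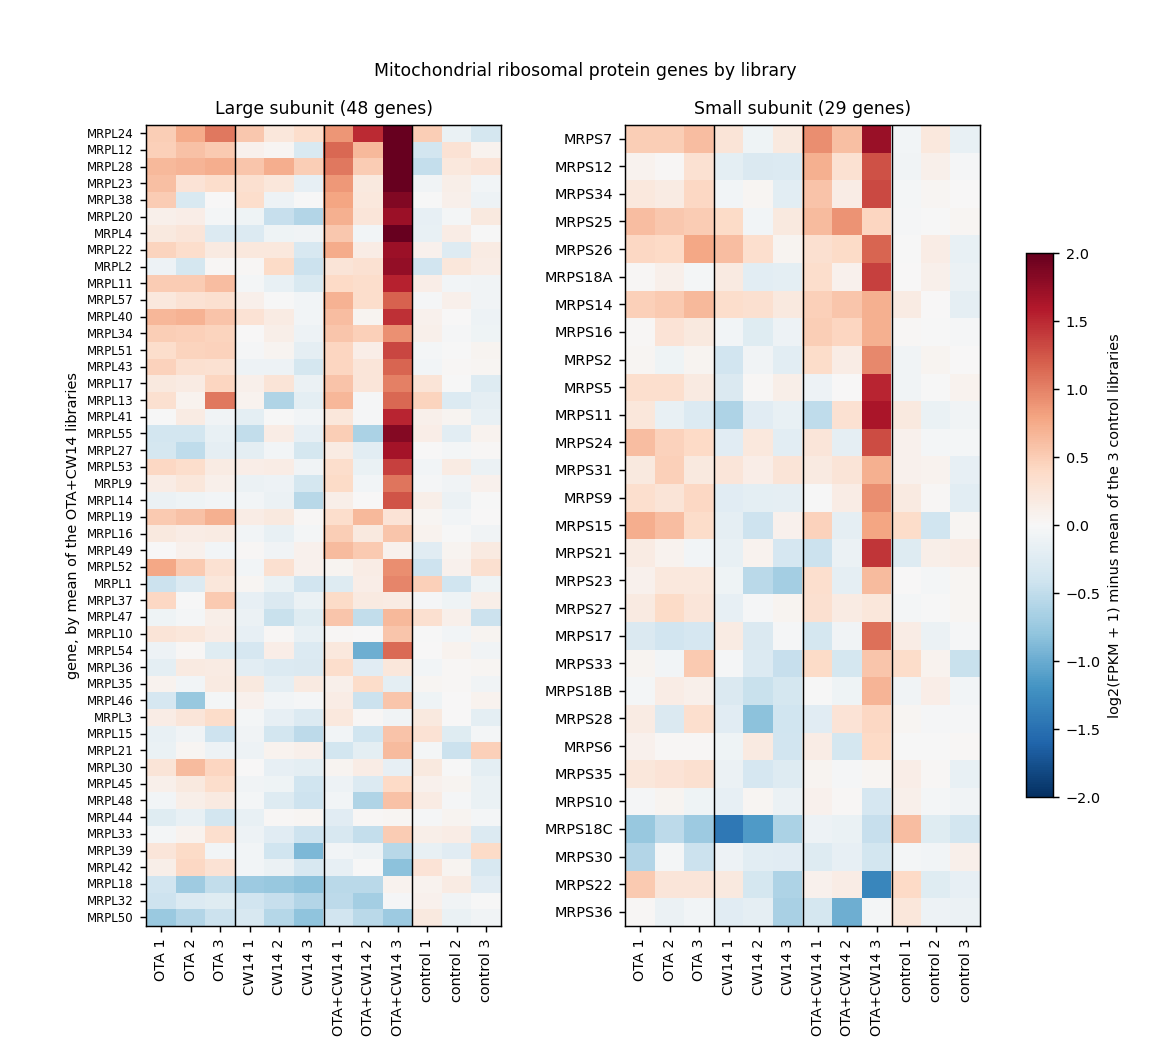
Each row is a gene and each column a library, with OTA, CW14, combined (OTA+CW14) and control libraries from left to right. Colour gives log2(FPKM + 1) minus the mean of the 3 control libraries, with the scale ending at 2 in either direction, and genes are ordered by the mean of the combined libraries. Combined replicate 3 is the reddest column, the highest library for 35 of 48 large and 21 of 29 small subunit genes.

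The letters upstream of these genes are shown for 4 members that the results below turn on or that carry a searched motif, a choice made after their values were seen. They are the 250 bases before the transcription start in the RefSeq promoter table (GRCh38.p14), in which 68 of the 77 members were found with 84 windows of 250 bases before and 50 after a start. Capitals mark exact matches to CCGGAAGT or its reverse complement ACTTCCGG, the site type bound by ETS factors such as GABP, or to CGCATGCG, its own reverse complement and the core of the NRF1 motif. The set shows the gene called lower in OTA cells (MRPL50), the called gene with the largest rise there (MRPL19), the highest large subunit gene (MRPL27) and the gene called in the interaction (MRPS18C).
MRPL50, chr9:101398619-101398868, minus strand: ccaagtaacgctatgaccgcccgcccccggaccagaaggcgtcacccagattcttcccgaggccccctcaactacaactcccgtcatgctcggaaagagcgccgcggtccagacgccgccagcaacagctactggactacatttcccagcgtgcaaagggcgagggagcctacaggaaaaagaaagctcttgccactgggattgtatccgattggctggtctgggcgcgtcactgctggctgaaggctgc
MRPL19, chr2:75646533-75646782, plus strand: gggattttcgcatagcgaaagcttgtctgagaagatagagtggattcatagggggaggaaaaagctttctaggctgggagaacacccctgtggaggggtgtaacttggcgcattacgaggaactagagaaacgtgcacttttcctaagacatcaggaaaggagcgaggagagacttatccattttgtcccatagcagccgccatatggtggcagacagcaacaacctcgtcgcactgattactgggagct
MRPL27, chr17:50373185-50373434, minus strand: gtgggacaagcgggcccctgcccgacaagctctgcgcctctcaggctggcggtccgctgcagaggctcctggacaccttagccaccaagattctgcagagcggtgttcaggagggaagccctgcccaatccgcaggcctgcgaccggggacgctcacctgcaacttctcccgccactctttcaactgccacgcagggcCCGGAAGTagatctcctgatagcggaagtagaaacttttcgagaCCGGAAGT
MRPS18C, chr4:83455808-83456057, plus strand: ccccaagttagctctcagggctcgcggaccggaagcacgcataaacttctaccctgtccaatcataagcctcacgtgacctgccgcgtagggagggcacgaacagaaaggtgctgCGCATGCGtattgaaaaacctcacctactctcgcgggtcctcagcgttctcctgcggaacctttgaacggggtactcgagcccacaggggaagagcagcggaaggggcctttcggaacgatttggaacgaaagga
Of the 84 member windows, 14 (16.7%) held the ETS letters on either strand, against 4.14% of all 35116 windows of the table. They belonged to 12 genes: MRPL3, MRPL16, MRPL18, MRPL20, MRPL27, MRPL38, MRPL47, MRPL51, MRPL52, MRPL53, MRPS22 and MRPS34. The NRF1 core stood in 3 windows (3.57%), against 2.02% of all windows, and the genes were MRPL17, MRPL22 and MRPS18C. No match was found in the windows shown for MRPL50 and MRPL19. A match is a run of letters and not a measured binding site, and windows of the same gene can overlap.

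Ochratoxin A alone was followed by small shifts that were mostly upward. In OTA against control 58 of 77 members had a positive log2 difference, with a median of 0.17 beside 0.03 for all genes tested, and it was 0.16 for the large and 0.17 for the small subunit. At an adjusted p under 0.05 in limma, 4 members rose (5.19%, against 4.82% of all genes tested) and 1 fell (1.30%, against 12.9% of all genes tested). In 31 members (40.3%) all OTA libraries lay above all control libraries, against 24.4% of all genes, and in 7 (9.09%) all lay below, against 25.7%. Centring every library on its median moved the median of all genes in this comparison from 0.03 to 0.13 on the log2 scale and that of the members from 0.17 to 0.27, so the members' median stayed 0.14 above that of all genes. In bulk RNA, fewer cells of a type and less RNA per cell cannot be told apart.

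The 4 genes that rose encode proteins of both subunits. MRPL19 (deposited locus chr2:75873907-75889334, hg19), a homologue of a bacterial protein at the interface of the subunits, had 12.1, 12.7 and 14.0 FPKM in OTA libraries, against 8.42, 7.81 and 8.20 FPKM in control libraries. Its log2 difference was 0.61 ± 0.14 (SE) with an adjusted p of 0.00953, and the groups did not overlap. MRPS25, a small subunit protein not found in bacteria (locus chr3:14984284-15106816, hg19, which takes in FGD5-AS1 and NR2C2), had 18.4, 17.5 and 17.1 FPKM in OTA libraries, against 11.5, 11.6 and 12.0 FPKM in control libraries, a log2 difference of 0.56 ± 0.15 with an adjusted p of 0.0257. Here the lowest OTA library was above the highest control library. MRPS14 (chr1:174982092-174992591, hg19), whose bacterial homologue sits in the head of the small subunit, had 15.6, 16.1 and 17.8 FPKM in OTA libraries, against 12.4, 11.1 and 9.58 FPKM in control libraries, a log2 difference of 0.55 ± 0.13 with an adjusted p of 0.0153. MRPL34 (chr19:17416475-17417652, hg19), the homologue of a small bacterial protein of the large subunit, had 74.4, 74.2 and 72.7 FPKM in OTA libraries, against 56.9, 52.0 and 49.8 FPKM in control libraries, a log2 difference of 0.47 ± 0.13 with an adjusted p of 0.028. In both genes every OTA library was higher than every control library.

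MRPL50 was the member called lower. The large subunit protein MRPL50, which has no bacterial homologue (chr9:104152247-104160919, hg19), had 81.3, 90.3 and 101 FPKM in OTA libraries, against 157, 124 and 129.8 FPKM in control libraries. The log2 difference was -0.59 ± 0.16 with an adjusted p of 0.0241 in limma, and all OTA libraries were below all control libraries. The values were in the same range in the other treated groups, with 109, 91.0 and 77.3 FPKM in CW14 libraries and 104, 93.7 and 82.0 FPKM in combined libraries. After median-centring its call in OTA against control was lost. The 3 genes nearest to no difference were MRPS2 (50.7 ± 2.78 FPKM in OTA and 50.7 ± 2.43 FPKM in control libraries), MRPL47 (13.4 ± 1.07 FPKM in OTA and 13.7 ± 3.67 FPKM in control libraries) and MRPL49 (54.7 ± 2.60 FPKM in OTA and 54.7 ± 7.77 FPKM in control libraries; SD, n = 3 each).

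The number of members called in this comparison depended on which libraries gave the spread. Without combined replicate 3, which belongs to neither group, 20 members rose (26.0%, against 14.7% of all genes tested) and 4 fell (5.19%, against 19.0%). All 5 genes above were among these 24. The 16 further genes that rose were MRPL10, MRPL11, MRPL12, MRPL24, MRPL28, MRPL30, MRPL40, MRPL43, MRPL51, MRPL52, MRPS7, MRPS9, MRPS24, MRPS26, MRPS27 and MRPS35, and the further 3 that fell were MRPL18, MRPL27 and MRPL32. MRPL11, whose bacterial homologue forms the base of the factor-binding stalk, had 45.2, 45.1 and 48.8 FPKM in OTA libraries, against 34.5, 30.1 and 29.7 FPKM in control libraries, with an adjusted p of 0.00122 without that library and 0.162 with it. MRPL18, related to the bacterial protein that binds 5S rRNA, had 55.2, 44.0 and 51.2 FPKM in OTA libraries, against 76.3, 80.9 and 61.5 FPKM in control libraries, with an adjusted p of 0.0044 without that library and 0.0563 with it. The abundant MRPL27 had 149, 135 and 169 FPKM in OTA libraries, against 194, 186 and 195 FPKM in control libraries, with an adjusted p of 0.0399 without that library and 0.54 with it. In all 3 genes the groups did not overlap. Leaving out a library of the compared groups lowered the count of 5, to 2, 3 and 1 without OTA replicates 1, 2 and 3, and to 4, 2 and 1 without control replicates 1, 2 and 3, while a fit to the OTA and control libraries alone called 28. Shares of all genes called in these fits are not given here, so the counts cannot be set against all genes. Each of the 5 calls was lost in at least 1 of the fits without a library, at adjusted p-values of 0.0503 to 0.106 in limma: that of MRPL19 without OTA replicate 3, that of MRPS14 without OTA replicate 3 or control replicate 2 or 3, that of MRPL34 without any OTA replicate or control replicate 2 or 3, that of MRPL50 without OTA replicate 1 or 2 or control replicate 1 or 3, and that of MRPS25 without any replicate of either group.

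**Figure D2:**
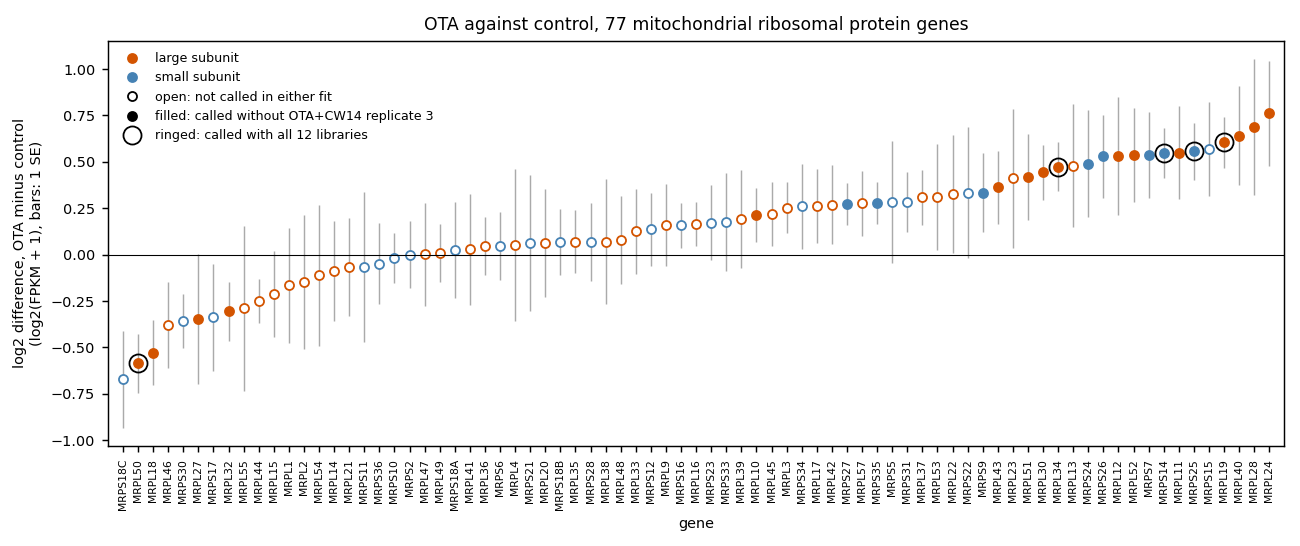
Points give the log2 difference of each gene, OTA minus control, on the log2(FPKM + 1) scale from the fit to all 12 libraries, with bars of 1 SE, ordered from lowest to highest. Ringed points are the 5 genes called with all libraries, filled points the 24 called without combined replicate 3, and 58 of the 77 points lie above 0.

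The bacterium alone gave no called member. In CW14 against control 0 of 77 members were called by limma, against 0.364% of all genes tested, and 5 had an unadjusted p under 0.05: MRPL18, MRPL32, MRPL50, MRPS18C and MRPS28, all with lower values in CW14 cells. The share of all genes with such an unadjusted p is not given here, so the 5 cannot be set against all genes. The members' differences were mostly negative, 56 of 77, with a median of -0.14 beside -0.02 for all genes. In 17 members (22.1%) all CW14 libraries lay below all control libraries, against 10.9% of all genes, and in 3 (3.90%) all lay above, against 9.66%. Without combined replicate 3, MRPL18 and MRPL32 were called lower (2.60% of the members, against 0.526% of all genes tested). MRPL18 had 43.6, 42.6 and 40.5 FPKM in CW14 libraries, against 76.3, 80.9 and 61.5 FPKM in control libraries, a log2 difference of -0.77 ± 0.11 with an adjusted p of 0.0108 without that library and 0.159 with it. MRPL32, a protein that a mitochondrial protease trims before it joins the large subunit, had 71.2, 67.5 and 61.7 FPKM in CW14 libraries, against 99.2, 88.4 and 92.5 FPKM in control libraries, a log2 difference of -0.48 ± 0.09 with an adjusted p of 0.0312 without that library and 0.536 with it. In both genes every CW14 library was lower than every control library.

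More members were called in comparisons with the combined group, whose 3 libraries were widely spread. In combined against control 18 members rose (23.4%, against 12.0% of all genes tested) and 1 fell (1.30%, against 16.8%), and the median log2 difference was 0.38 beside 0.02 for all genes. In combined against CW14 21 members rose (27.3%, against 14.8%) and 0 fell, against 17.5% of all genes tested, with a median of 0.50 beside 0.02. The median shift from the control mean differed between the combined libraries: it was 0.26 in replicate 1, 0.02 in replicate 2 and 0.79 in replicate 3. In replicate 3 alone, 34 members (44.2%) were over 2 times the control mean, against 17.8% of all genes tested. Without that library 15 members rose against control (19.5%, against 13.7% of all genes) and 4 fell (5.19%, against 19.0%), with a median of 0.11, and 22 rose against CW14 (28.6%, against 15.0%), with a median of 0.28. Of the 19 genes called against control with all libraries, 15 remained called without combined replicate 3, and of the 21 called against CW14, 19 remained. Leaving out other libraries also moved the first count: it was 35 without combined replicate 2 and 10, 11 and 11 without control replicates 1, 2 and 3. The count against CW14 was 40 without combined replicate 2 and 12 without CW14 replicate 2 and without CW14 replicate 3. Fitted to the groups compared alone, 3 members were called against control and 2 against CW14. For these further fits the shares of all genes are not given here.

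Among large subunit genes, MRPL24 had the largest rise against control. MRPL24, whose bacterial homologue starts the assembly of its subunit, had 17.2, 26.7 and 38.9 FPKM in combined libraries, against 12.8, 7.93 and 6.73 FPKM in control libraries, a log2 difference of 1.47 ± 0.28 with an adjusted p of 0.0029 (1.19 ± 0.26 and 0.00541 without combined replicate 3). MRPL12, which forms the flexible stalk and is also known to bind the mitochondrial RNA polymerase, had 99.6, 70.2 and 213 FPKM in combined libraries, against 34.3, 54.7 and 46.7 FPKM in control libraries, a log2 difference of 1.34 ± 0.32 with an adjusted p of 0.00873 (0.90 ± 0.20 and 0.00557 without combined replicate 3). For both genes the lowest combined library was above the highest control library, and replicate 3 was the highest of all. MRPL28 had 33.0, 22.1 and 83.5 FPKM in combined libraries, against 10.7, 17.8 and 18.7 FPKM in control libraries, with adjusted p-values of 0.0194 with and 0.0182 without replicate 3. MRPL23, whose bacterial homologue stands at the exit of the tunnel, had 109.8, 68.5 and 283 FPKM in combined libraries, against 57.3, 64.9 and 57.9 FPKM in control libraries, and its call was lost without replicate 3, with adjusted p-values of 0.0462 with and 0.0587 without it. The same held for MRPL20, an assembly protein of the large subunit in bacteria, with 66.4, 47.3 and 133 FPKM in combined libraries, against 35.7, 39.0 and 46.1 FPKM in control libraries, and adjusted p-values of 0.039 and 0.0598. Against CW14, MRPL20 kept its call, with 37.8, 28.8 and 26.2 FPKM in CW14 libraries and adjusted p-values of 0.00703 with and 0.00401 without replicate 3. MRPL34 rose again in the combined group, with 78.0, 74.1 and 101 FPKM, against 56.9, 52.0 and 49.8 FPKM in control libraries (log2 difference 0.65 ± 0.13, adjusted p 0.00395). MRPL11 had 41.7, 40.4 and 92.9 FPKM in combined libraries, against 30.6, 28.2 and 25.1 FPKM in CW14 libraries (log2 difference 0.93 ± 0.25, adjusted p 0.016). MRPL50 fell in the combined group, with a log2 difference of -0.55 ± 0.16 from control and an adjusted p of 0.0223 (0.0375 without replicate 3). Against control, the calls of MRPL28 and MRPL50 were lost without control replicate 1, at adjusted p-values of 0.0850 and 0.0956. Those of MRPL20 and MRPL23 were lost in 9 and 11 of the 12 fits that left out a library, with adjusted p-values up to 0.120 and 0.116, and that of MRPL11 against CW14 was lost without CW14 replicate 3, at 0.0542.

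In the small subunit MRPS12, MRPS16 and MRPS7 had the smallest p-values among the 4 groups. MRPS12 (its deposited locus overlaps SARS2), whose bacterial homologue takes part in decoding, had 115, 86.5 and 169 FPKM in combined libraries, against 60.9, 56.8 and 57.7 FPKM in CW14 libraries and 66.2, 75.1 and 68.4 FPKM in control libraries. The log2 difference was 1.01 ± 0.20 from CW14 (adjusted p 0.00274, and 0.0011 without combined replicate 3) and 0.76 ± 0.20 from control (adjusted p 0.0137, and 0.0105 without it). MRPS16 (its locus overlaps CFAP70 and DNAJC9-AS1), a homologue of a bacterial protein needed for small subunit assembly, had 88.0, 84.2 and 103 FPKM in combined libraries, against 59.9, 52.9 and 58.4 FPKM in CW14 libraries and 63.4, 62.5 and 61.6 FPKM in control libraries. Its log2 difference was 0.67 ± 0.12 from CW14 with an adjusted p of 0.00173, and 0.54 ± 0.12 from control with an adjusted p of 0.00635. All combined libraries of both genes exceeded all CW14 and control libraries, and the call of MRPS12 against control was lost without control replicate 1, at an adjusted p of 0.0516. MRPS7 (its locus overlaps GGA3 and MIF4GD), whose bacterial homologue organises the head, had 55.3, 44.0 and 96.3 FPKM in combined libraries, against 34.5, 26.9 and 33.0 FPKM in CW14 libraries and 27.5, 33.0 and 25.7 FPKM in control libraries. Its log2 difference from control was 1.08 ± 0.23 with an adjusted p of 0.00537 (0.77 ± 0.14 and 0.00239 without replicate 3). MRPS14 and MRPS25, called higher in OTA cells, were also called higher in the combined group against control, with log2 differences of 0.58 ± 0.13 and 0.65 ± 0.15 (adjusted p 0.00817 and 0.00846).

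**Figure D3:**
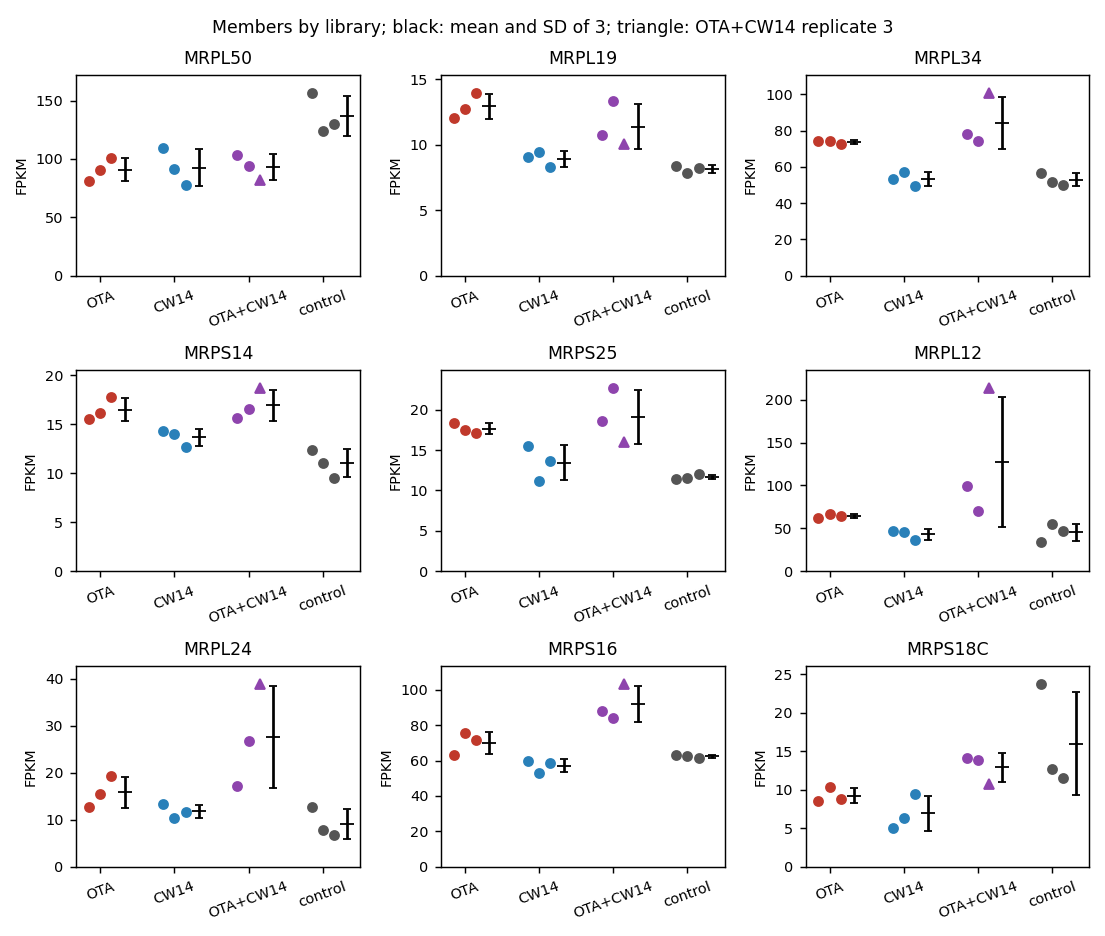
FPKM of 9 genes by library, with OTA, CW14, combined (OTA+CW14) and control groups from left to right. Points are libraries, the triangle is combined replicate 3, and the black mark with bars is the mean and SD of 3 libraries. MRPL50 is below the controls in all 9 treated libraries, while MRPL19, MRPL34, MRPS14 and MRPS25 are higher in every OTA and combined library than in any control library.

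Few members separated the combined group from OTA alone. In combined against OTA 2 members rose (2.60%, against 7.79% of all genes tested) and 0 fell, against 8.22%, and 16 had an unadjusted p under 0.05. For the unadjusted p the share of all genes is not given here, so the 16 cannot be set against it. The median was 0.19, with 0.23 for the large and 0.09 for the small subunit, beside 0.03 for all genes. MRPS12 had 73.7, 71.3 and 86.4 FPKM in OTA libraries, the highest of them just under the lowest combined library, with an adjusted p of 0.0489, and MRPS16 had 63.3, 75.4 and 71.4 FPKM in OTA libraries with an adjusted p of 0.0486. Without combined replicate 3 the members' median was -0.02, 2 members rose (2.60%, against 9.41%) and 4 fell (5.19%, against 11.8%). MRPS16 was the gene called in both fits, at 0.0443 without that library, where MRPS12 was at 0.057. The genes added were MRPL49, which rose with 85.1, 78.8 and 57.9 FPKM in combined libraries, against 54.4, 57.5 and 52.3 FPKM in OTA libraries, and MRPL32, MRPL33, MRPL45 and MRPS36, which fell. The locus of MRPL49 overlaps FAU, a gene of a cytosolic ribosomal protein, and 2 more entries. In this comparison the count was 24 without combined replicate 2, 1 without combined replicate 1, and 0 without any single library of the other 3 groups. The shares of all genes in those fits are not given here.

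The test of the interaction asked whether toxin and bacterium together gave more or less than the sum of their separate log2 differences. It called 1 member higher (1.30%, against 1.85% of all genes tested) and 0 lower, against 1.49%, and 8 members had an unadjusted p under 0.05. For the unadjusted p the share of all genes is not given here, so the 8 cannot be set against it. The gene called was MRPS18C, a paralogue of MRPS18A and MRPS18B and a homologue of a bacterial small subunit protein. It had 8.54, 10.3 and 8.79 FPKM in OTA libraries, 5.02, 6.38 and 9.48 FPKM in CW14 libraries and 14.1, 13.9 and 10.8 FPKM in combined libraries, against 23.7, 12.7 and 11.5 FPKM in control libraries. The interaction was 1.51 ± 0.37 on the log2 scale with an adjusted p of 0.0489, and 1.62 ± 0.38 with 0.0232 without combined replicate 3. OTA and CW14 libraries lay below all control libraries, while 2 combined libraries lay within the control range, and a control library of 23.7 FPKM stood well above the other two. The call was lost without any OTA or any control replicate, without CW14 replicate 1 or 2, and without combined replicate 1, at adjusted p-values of 0.0663 to 0.107, and the deposited locus overlaps FAM175A. The next smallest interaction p-values were those of MRPL18 (0.96 ± 0.25, adjusted p 0.0532), MRPS12 (0.88 ± 0.28, adjusted p 0.0889) and MRPS16 (0.52 ± 0.17, adjusted p 0.0985). Without combined replicate 3, 6 members were called (7.79%, against 6.05% of all genes tested), all with a positive interaction: MRPS18C, MRPL18, MRPL49, MRPL50, MRPS12 and MRPS16.

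Across the 4 groups 20 members differed by limma's F test (26.0%, against 37.5% of all genes tested), 12 of 48 large and 8 of 29 small subunit genes. The smallest p-values belonged to MRPL34, MRPL24 and MRPL12 in the large subunit and to MRPS16, MRPS12 and MRPS7 in the small subunit. The count was 13 without CW14 replicate 2 and without CW14 replicate 3, 42 without combined replicate 2 and 37 without combined replicate 3, and the shares of all genes in these fits are not given here.

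The shifts of large and small subunit genes were set side by side in each library. The median log2 difference of the large subunit minus that of the small subunit, taken within a library against the control mean, lay between -0.04 and 0.01 in OTA libraries and between 0.01 and 0.11 in CW14 libraries. It was 0.18, -0.07 and 0.24 in combined replicates 1, 2 and 3. The summed FPKM of the large subunit genes was between 1.27 and 1.34 times that of the small subunit genes in OTA libraries and between 1.31 and 1.35 times in CW14 libraries. The ratio was 1.43, 1.33 and 1.60 in the combined libraries, and lay between 1.43 and 1.48 in control libraries. So the OTA and CW14 ratios were below all control ratios. MRPS26 alone carried between 22.3% and 26.7% of the small subunit sum in OTA libraries and at least 23.0% in every CW14 library, against 18.6% to 21.3% in control libraries. With MRPS26 left out the ratio was between 1.67 and 1.73 in OTA libraries and 1.84, 1.79 and 1.73 in CW14 libraries, against 1.81 to 1.82 in control libraries, so that the CW14 libraries no longer lay below all controls. These are descriptions over genes chosen by name, and no test was made of them.

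The members were also divided by ancestry. Of the 48 members with a homologue in the bacterial ribosome, 3 rose and 0 fell in OTA against control, where 4.82% of all genes tested rose and 12.9% fell, and 14 rose and 0 fell in combined against control, where 12.0% rose and 16.8% fell. Of the 27 members particular to mitochondria, 1 rose and 1 fell in OTA against control, and 3 rose and 1 fell in combined against control. With combined replicate 3 left out, 14.7% of all genes tested rose and 19.0% fell in OTA against control, and 13.7% rose and 19.0% fell in combined against control. In that fit 12 bacterial homologues rose (25.0%) and 3 fell (6.25%) in OTA against control, and 11 rose (22.9%) and 2 fell (4.17%) in combined against control. Of the mitochondria-specific members 8 rose (29.6%) and 1 fell (3.70%) in OTA against control, and 3 rose (11.1%) and 1 fell (3.70%) in combined against control. The median log2 difference in OTA against control was 0.10 for the bacterial homologues and 0.26 for the mitochondria-specific proteins, and in combined against control it was 0.46 for the bacterial homologues and 0.25 for the mitochondria-specific proteins. Without that library the last 2 medians were 0.11 and 0.10. MRPL57 and MRPS36 stand in neither list.

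Other families of ribosomal and respiratory genes are given beside the members, and since the comparisons share libraries, they are set side by side only. Respiratory chain genes were chosen by symbols that begin with NDUF, UQCR, ATP5 or COX4 to COX8, or are SDHA to SDHD. This choice does not separate subunits from assembly factors. The median log2 difference in OTA against control was 0.17 for the members, 0.44 for 81 cytosolic ribosomal protein genes (7 rose, 0 fell) and 0.31 for 89 nuclear respiratory chain genes (9 rose, 1 fell). In this comparison 40 cytosolic ribosomal protein genes rose and 0 fell without combined replicate 3, and 27 respiratory chain genes rose and 1 fell. Of all genes tested, 4.82% rose and 12.9% fell here with all libraries, and 14.7% rose and 19.0% fell without that library. In combined against OTA the median was 0.19 for the members, -0.47 for the cytosolic ribosomal proteins (0 rose, 18 fell) and 0.16 for the respiratory chain (2 rose, 5 fell), where 7.79% of all genes tested rose and 8.22% fell. Without combined replicate 3 these 3 medians were -0.02, -0.78 and -0.16, with 59 cytosolic ribosomal protein genes called lower (72.8%, against 11.8% of all genes tested). In combined against control the medians were 0.38 for the members and 0.43 for the respiratory chain (21 rose, 1 fell), against -0.04 for the cytosolic ribosomal proteins (1 rose, 4 fell). Leaving out combined replicate 3 gave 0.11 for the members, 0.21 for the respiratory chain (21 rose, 2 fell) and -0.34 for the cytosolic ribosomal proteins (0 rose, 20 fell). Of all genes tested, 12.0% rose and 16.8% fell in this comparison with all libraries, and 13.7% rose and 19.0% fell without that library. In combined replicate 2 the median shift from control was 0.02 for the members and -0.42 for the cytosolic ribosomal proteins.

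**Figure D4:**
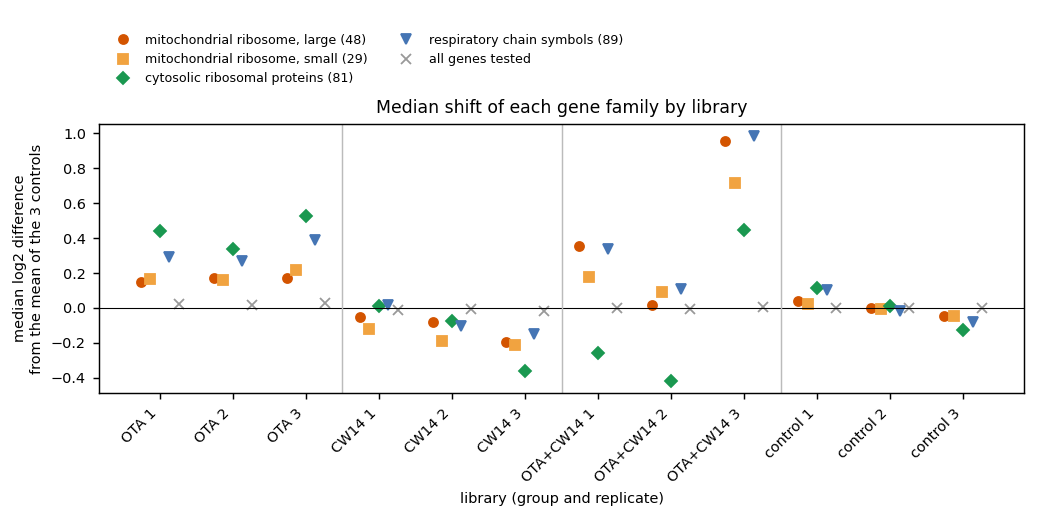
Median log2(FPKM + 1) difference from the mean of the 3 control libraries, for each library and gene family. OTA libraries show cytosolic ribosomal proteins above the mitochondrial ones, combined replicates 1 and 2 show the reverse, and all families are high in combined replicate 3, where the members' median is 0.79.

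In combined replicate 3 the excess varied with the base composition and the length of the transcript. The log2 difference of replicate 3 from the mean of combined replicates 1 and 2 had a median of 0.73 over the members. It was 0.02 over the genes tested with a transcript. Replicate 3 was above both other combined libraries in 60 members (77.9%, against 44.9% of all genes tested). It was below both in 14 (18.2%, against 42.2%). Set against the GC content of the GENCODE 29 transcript (a value for all 77 members, 35.0% to 71.9%), Spearman's rho was 0.54 over the members and 0.48 over 11429 genes tested with a transcript. Set against transcript length, rho was -0.31 over the members and -0.45 over the 11429 genes. By GC content the median difference was 0.21 in the 23 members under 45% GC, of which 14 were higher in replicate 3. It was 0.70 in the 33 members of 45% to 55% GC, with 27 higher, and 1.19 in the 21 members above 55% GC, with all 21 higher. Shares of all genes tested in these GC ranges are not given here, so the counts are not read as particular to the members. For OTA minus control, rho with GC content was 0.12 over the members. Genes are not independent replicates, all points share the same libraries, and the part of GC content or length in the results was not tested.

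**Figure D5:**
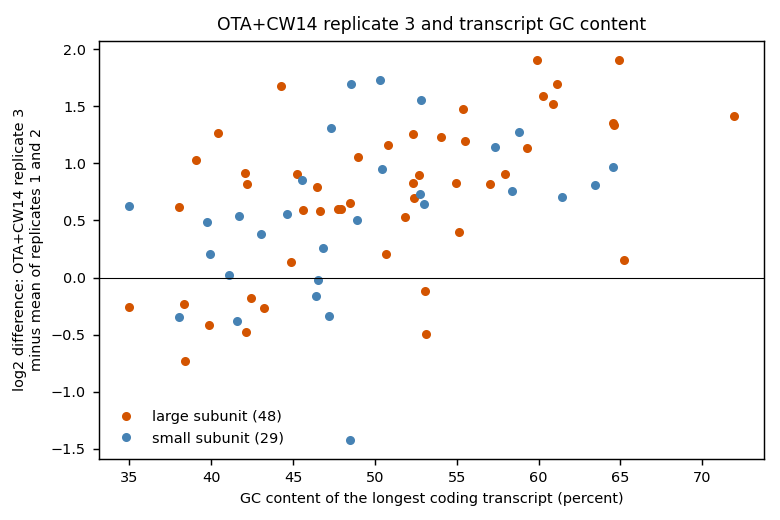
Each point is a gene, with the GC content of its transcript in percent on the horizontal axis and the log2 difference of combined replicate 3 from the mean of combined replicates 1 and 2 on the vertical axis. All 21 genes above 55% GC lie above 0, and the share of all genes tested in that range is not given here.

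The genes that build and serve this ribosome were followed as lists. Of 28 genes for assembly of the mitochondrial ribosome and modification of its rRNA, 1 rose and 2 fell in OTA against control, beside 4.82% of all genes tested higher and 12.9% lower. In combined against OTA 10 rose and 1 fell, beside 7.79% higher and 8.22% lower, with a median of 0.39. When combined replicate 3 was left out, 2 rose and 4 fell in OTA against control, and 9 rose and 2 fell in combined against OTA, with a median of 0.31. Of all genes tested, 14.7% rose and 19.0% fell in OTA against control in that fit, and 9.41% rose and 11.8% fell in combined against OTA. DDX28, an RNA helicase of large subunit assembly, had 4.72, 2.48 and 2.49 FPKM in OTA libraries, 8.46, 7.44 and 6.72 FPKM in CW14 libraries and 11.6, 9.62 and 10.3 FPKM in combined libraries, against 8.07, 7.53 and 9.17 FPKM in control libraries. It fell in OTA cells, with a log2 difference of -1.17 ± 0.20 and an adjusted p of 0.00152, and rose in combined against OTA, with 1.48 ± 0.20 and 0.00246. MTG2, a GTPase of large subunit assembly, had 8.62, 8.72 and 9.92 FPKM in OTA libraries and 19.0, 16.4 and 13.1 FPKM in combined libraries, against 14.0, 16.0 and 17.2 FPKM in control libraries, with an adjusted p of 0.00687 in OTA against control. C1QBP, a matrix protein linked to mitochondrial translation, rose, with 57.1, 50.6 and 68.2 FPKM in OTA libraries, against 39.0, 41.5 and 34.6 FPKM in control libraries and an adjusted p of 0.0151. The interaction was called higher for 3 of the 28 genes (10.7%, against 1.85% of all genes tested) and lower for 0, against 1.49%. They were DDX28, MTG2 and MPV17L2, with log2 values of 1.60 ± 0.28, 0.92 ± 0.22 and 1.08 ± 0.25 and adjusted p-values of 0.0179, 0.0466 and 0.0439 in limma. Without combined replicate 3 the interaction was called higher for 6 (21.4%, against 6.05% of all genes tested), these 3 among them. It was called lower for 1 (3.57%) in that fit, where the share of all genes called lower is not given here.

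Of 16 genes that maintain and process mitochondrial DNA and RNA, 0 rose and 4 fell in OTA against control (4.82% of all genes tested rose and 12.9% fell), and 3 rose and 0 fell in combined against OTA (7.79% rose and 8.22% fell). The fit without combined replicate 3 had 2 that rose and 5 that fell in OTA against control (14.7% of all genes tested rose and 19.0% fell), and 4 that rose and 0 that fell in combined against OTA (9.41% rose and 11.8% fell). TRMT10C, a subunit of the mitochondrial RNase P that frees tRNAs from the long transcripts, had 16.4, 15.9 and 15.0 FPKM in OTA libraries and 31.1, 34.7 and 51.3 FPKM in combined libraries, against 44.1, 42.2 and 42.3 FPKM in control libraries. Its log2 difference was -1.39 ± 0.17 in OTA against control with an adjusted p of 0.00014, and 1.22 ± 0.17 in combined against OTA with an adjusted p of 0.00249. MTERF1, which binds mitochondrial DNA downstream of the rRNA genes, had 5.50, 5.59 and 4.91 FPKM in OTA libraries, against 13.6, 11.4 and 13.1 FPKM in control libraries, with an adjusted p of 0.0258. C10orf2, the mitochondrial DNA helicase, had 5.62, 6.37 and 5.04 FPKM in OTA libraries, against 7.55, 10.8 and 13.3 FPKM in control libraries, with an adjusted p of 0.0283. All OTA libraries of TRMT10C, MTERF1 and C10orf2 lay below all control libraries.

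Among 18 translation factors and related genes, 0 rose and 1 fell in OTA against control (4.82% of all genes tested rose and 12.9% fell), and 3 rose and 0 fell in combined against control (12.0% rose and 16.8% fell). Without combined replicate 3 these counts were 3 and 1 in OTA against control (14.7% of all genes tested rose and 19.0% fell) and 3 and 0 in combined against control (13.7% rose and 19.0% fell). The gene that fell in OTA cells was C12orf65, a member of the release factor family that acts on stalled mitochondrial ribosomes, with 7.39, 8.03 and 5.05 FPKM in OTA libraries, against 18.8, 14.7 and 14.7 FPKM in control libraries (log2 difference -1.14 ± 0.28, adjusted p 0.0161). Higher in the combined group were TSFM, an elongation factor, with 21.3, 19.4 and 28.8 FPKM in combined libraries, against 16.9, 13.9 and 13.5 FPKM in control libraries (adjusted p 0.0195, and 0.0331 without combined replicate 3), TACO1 and TRMU. TACO1, an activator of the translation of a cytochrome oxidase subunit, had 23.3, 21.4 and 44.4 FPKM in combined libraries, against 13.8, 15.9 and 14.3 FPKM in control libraries (adjusted p 0.016, and 0.0159 without it). TRMU, which modifies mitochondrial tRNAs, had 10.8, 9.18 and 28.0 FPKM in combined libraries, against 3.47, 7.73 and 7.21 FPKM in control libraries, and lost its call without that library, with adjusted p-values of 0.032 with and 0.0696 without it. Of 6 mitochondrial ribosomal proteins that carry other symbols, 0 were called in OTA against control, where 0 had an unadjusted p under 0.05, and 3 rose in combined against CW14: AURKAIP1, GADD45GIP1 and CHCHD1 (14.8% of all genes tested rose there). The first 2 kept their calls without combined replicate 3, while CHCHD1 was at an adjusted p of 0.0624, against 0.0236 with all libraries.

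Of 8 tested regulators of nuclear genes for mitochondria, 0 rose and 4 fell in OTA against control, where 4.82% of all genes tested rose and 12.9% fell. Without combined replicate 3, 1 rose and 5 fell, where 14.7% of all genes tested rose and 19.0% fell. GABPB1, the partner of the ETS protein GABPA in the factor GABP, had 9.43, 9.97 and 8.91 FPKM in OTA libraries, 14.7, 16.3 and 15.0 FPKM in CW14 libraries and 13.1, 13.2 and 11.2 FPKM in combined libraries, against 18.4, 19.5 and 19.1 FPKM in control libraries. Its log2 difference in OTA against control was -0.94 ± 0.12 with an adjusted p of 0.000223. GABPA did not fall with it: all OTA libraries of GABPA lay above all control libraries, and it was not called in this comparison. Without combined replicate 3 the log2 difference of GABPA in OTA against control was 0.27 ± 0.15, with an adjusted p of 0.186 in limma. PPRC1, a coactivator related to PGC-1, had 3.71, 4.74 and 4.50 FPKM in OTA libraries, 15.8, 14.2 and 20.8 FPKM in CW14 libraries and 8.18, 11.1 and 5.66 FPKM in combined libraries, against 13.9, 14.2 and 15.4 FPKM in control libraries. The log2 difference was -1.55 ± 0.21 with an adjusted p of 0.000343 in OTA against control, and 0.77 ± 0.21 with 0.0301 in combined against OTA. MYC, a growth regulator with many ribosomal and mitochondrial target genes, had 35.0, 41.6 and 38.5 FPKM in OTA libraries, 94.2, 66.3 and 96.6 FPKM in CW14 libraries and 48.4, 58.7 and 28.2 FPKM in combined libraries, against 163, 151 and 166 FPKM in control libraries, a log2 difference of -2.03 ± 0.23 in OTA against control with an adjusted p of 8.39e-05. All OTA libraries of GABPB1, PPRC1 and MYC were below all control libraries. In CW14 against control 0 of the 8 were called, against 0.364% of all genes tested. MYC was called lower there without combined replicate 3 (log2 difference -0.91 ± 0.14, adjusted p 0.0129 in limma). It was 1 of the 8 (12.5%), against 0.526% of all genes tested called lower, and all CW14 libraries of MYC were below all control libraries. In combined against OTA 1 of the 8 rose and 1 fell, where 7.79% of all genes tested rose and 8.22% fell. The one that fell was GABPA (log2 difference -0.88 ± 0.27, adjusted p 0.0462, and 0.0550 without combined replicate 3). All 8 differences were negative in combined against control, with 3 called (16.8% of all genes tested fell), and in combined against CW14, with 4 called (17.5% fell).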

How the data were processed

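RNA of 12 Caco-2 samples (4 groups of 3, from the sample titles) was sequenced. The authors deposited a table of FPKM for every gene in every library. The submitters' processing notes name Cuffdiff, Cuffnorm, Cufflinks 2.2.1, TopHat2 2.0.13, cutadapt 1.10 and hg19. The role of each tool, the gene annotation and how libraries were scaled to each other are not stated there, nor whether loci count from 0 or 1. FPKM are not counts, and absolute depth is unknown; depth relative to control replicate 1 was 0.470 to 1.60, read from the ratios of values under 0.3 FPKM in both libraries.

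Values were analysed as log2(FPKM + 1), which understates changes of low genes. limma 3.58.1 (R 4.3.3) fitted a mean per group to the 12928 genes averaging 1 FPKM or more, with variances moderated along an intensity trend, two-sided tests on 8 residual degrees of freedom and Benjamini-Hochberg adjustment over all genes. A gene was called, and said to rise or fall, at an adjusted p under 0.05. The fit was tested on simulated data. The members and gene lists were chosen with earlier results of these data known. Genes were named by rule: the 6 called members with the largest rise or fall per comparison, the 4 highest and lowest per subunit, the smallest F test and interaction p-values, the 3 nearest 0 in OTA against control, and of each other list up to 3 called genes per comparison. The text leaves out some of these, and the genes called without combined replicate 3 were named after their values were seen. Promoter letters came from RefSeq (GRCh38.p14) and GC content from GENCODE 29, matched by symbol. Alternatives were another pseudocount (0.1), no filter or at least 5 FPKM, median-centring, quantile normalization, the groups compared alone, a replicate block, array weights, each library left out, and subunits by structure. By structure MRPS18A and MRPS30 were counted as large subunit genes and MRPS36 was left out. All subunit values in the text are by symbol. A gene of the leukocyte marker list is not reported here.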

Additional observations from a re-analysis of the deposited data

Results flagged for a closer look

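MRPS18C was the single member called in the interaction of ochratoxin A and CW14 (1.30% called higher, against 1.85% of all genes tested). The log2 difference made by the toxin was higher by 1.51 in the presence of CW14 than in its absence, tested as the interaction term in limma (SE 0.37, adjusted p 0.0489). MRPS18C was at 9.22 ± 0.968 FPKM in OTA libraries, 6.96 ± 2.29 FPKM in CW14 libraries and 12.9 ± 1.86 FPKM in combined libraries, against 16.0 ± 6.73 FPKM in control libraries (SD, n = 3 each). Of 19 alternatives, 12 lost the call, with adjusted p-values from 0.00523 to 0.107 over all of them. The call was lost without any single OTA or control replicate. Without control replicate 1, the highest control library, the interaction was 1.20 with an adjusted p of 0.0663 in limma.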

How the results depend on the processing

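None of the 34 calls of named genes changed sign under any alternative, which is no support for them. Leaving out a library outside the groups compared leaves the log2 difference unchanged, and only differences already called were counted. The median in combined against OTA, 0.19 with all libraries, was -0.02 without combined replicate 3. In OTA against control the count of called members was 5, and became 12 with quantile normalization, 28 with only the groups compared and 28 with array weights; single libraries left out gave 1 to 24. CW14 against control had 0, 3 with array weights, and 0 to 2 with a library left out. Combined against OTA had 2, both higher: 1 with a pseudocount of 0.1 and without a filter, 1 with median-centring, a lower one, with the calls of MRPS12 and MRPS16 lost, 9 with quantile normalization, 0 with only the groups compared, 15 with array weights, and 0 to 24 with a library left out. Combined against control had 19: 29 with quantile normalization, 3 with only the groups compared, 32 with array weights, and 10 to 35. Combined against CW14 had 21: 34 with quantile normalization, 2 with only the groups compared, and 12 to 40. The interaction had 1: 0 without a filter and with median-centring, 2 at a mean of at least 5 FPKM, 3 with quantile normalization, 11 with array weights, and 0 to 7. The F test had 20: 34 with quantile normalization, 45 with array weights, and 13 to 42. With a replicate block the count was 1 in combined against OTA, again a lower one with MRPS12 and MRPS16 lost, and 0 in the interaction. The other counts stayed within 1.5 times. Deviations of same-numbered libraries from their group means had correlations of -0.150 to 0.154, and those of differently numbered libraries -0.136 to 0.191. With 3 libraries per group these values cannot tell whether same-numbered libraries share a batch or pairing. Median-centring moved the medians in OTA against control to 0.27 for the large and 0.28 for the small subunit. Of the 34 calls, 5 held under every alternative: MRPL24, MRPL34 and MRPS16 in combined against control, and MRPS12 and MRPS16 in combined against CW14. The share of all genes called also depends on the setting. In OTA against control 4.82% of all genes tested rose with all libraries and 14.7% without combined replicate 3. For most alternatives that share is not given here, so their counts show only how far the calls depended on the setting. The causes were not tested. Array weights gave combined replicate 3 a weight of 0.0847. The 3 libraries of each group limit the precision.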
